A study of Homo sapiens with 54 samples.

Results

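The replication-dependent histone genes of the large cluster on chromosome 6 were examined in RNA-sequencing libraries of HEK293T cells, a human embryonic kidney line. Members were the rows whose gene name is one of the H1, H2A, H2B, H3 or H4 symbols of that cluster and that held at least 10 estimated counts over all libraries. Of 65 such symbols, 55 were in the table and 42 of these were members, out of 38137 genes listed. H1-1 (9.98 counts) and H3C11 (9.92 counts) lay just outside the minimum, and H2BC14 (14), H3C7 (14.9) and H4C9 (15) just inside it. The 42 genes lie between 26020451 and 27893891 of chromosome 6 (GRCh38), a span of 1.87 Mb, with 22 on the plus and 20 on the minus strand.

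The study compared RfxCas13d, an RNA-guided RNA nuclease that can also cut bystander RNAs once bound to its target, with N2V7 and N2V8, engineered forms made to lessen that collateral cleavage. Each effector (WT, N2V7 or N2V8) was expressed from a transfected plasmid that also carried a crRNA: crRNA-13 against C9ORF72 (S13), an additional crRNA (S3, S4 or S7), or a non-targeting crRNA (NTG). Cells given the antisense oligonucleotide ASO2 or ASO4, and untransfected cells (UT), completed 18 groups of 3 independent biological replicates. All groups share the same cell line, and the labels place the harvest at 48 h, while the results text of the study names a longer interval. The labels give no target for S3, S4 and S7, and the study lists crRNAs of the same numbers among those it designed against C9ORF72. For N2V8_S13 the titles read N2V8 but another label field reads N2V87; the titles were followed, so which effector these libraries carry rests on them.

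Replication-dependent histones package newly made DNA, so their genes are transcribed mainly in S phase. H2A, H2B, H3 and H4 form the core of the nucleosome, and H1 binds the linker DNA between nucleosomes. Their mRNAs are the known exception to polyadenylation in animals: the 3′ end is cut just after a conserved stem-loop, which is bound by the stem-loop binding protein SLBP, and no poly(A) tail is added. Polyadenylated forms of some of these mRNAs are made as well. The libraries were selected for poly(A), so the counts cannot be read as the total mRNA of these genes, and the gene-level table does not tell which 3′ form was counted.

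The stem-loop is shown because it is what all 42 members share. Each of them held 1 within 22 to 62 bases after the stop codon, with a 6-base stem starting GG and a 4-base loop, and 40 had no mismatch in the stem. There were 7 distinct 16-base forms. The most frequent was found in 24 members of the H1, H2A, H2B and H3 classes, another in 7 H4 genes and another in 6 genes, 5 of them H2B genes. The lines give 1 gene of each of these 3 forms and H3C6, whose loop no other member had, 5′ to 3′ in the direction of the gene, with the stem-loop in capitals and 5 genomic bases on either side. H1-2 lies at chr6:26055744-26055759 (minus strand), H4C4 at chr6:26188715-26188730 (minus), H2BC12 at chr6:27146366-27146381 (minus) and H3C6 at chr6:26225596-26225611 (plus), all GRCh38 positions of the capitals.
H1-2: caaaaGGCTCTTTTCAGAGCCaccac
H4C4: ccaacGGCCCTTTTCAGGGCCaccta
H2BC12: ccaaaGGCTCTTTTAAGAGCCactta
H3C6: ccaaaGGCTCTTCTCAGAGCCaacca

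Promoters are shown because members sit in head-to-head pairs and the classes differ in their motifs. RefSeq promoter sequence (GRCh38.p14, 250 bases before to 50 after the start) was matched for 38 of the 42 members. The letters TATAAA, on either strand, were in 26 of 38 members (68.4%) and in 12% of all 27305 promoters. CCAAT was in 32 members (84.2%, against 35.7% of all promoters) and in 1 of 7 H4 promoters. The octamer ATTTGCAT, known from H2B promoters, was in 17 members (44.7%, against 1.80%), of which 9 of 12 H2B, 7 of 9 H2A, 1 of 6 H3 and no H1 or H4 promoter. The H3 promoter is that of H3C4, whose annotated start is also that of H2AC7, so the same stretch is counted for both genes. Promoters of most head-to-head pairs overlap, so a match can count for both genes and the class shares are not independent. AAACACA, known as the H1 box, was in 4 of 4 H1 promoters and in no other member (10.5% of members, against 5.76% of all promoters). No motif overlaps another by its letters in the stretches printed. The lines give the 120 bases before the start, with these motifs in capitals on the strand of the gene or as their reverse complement. The positions are chr6:26056471-26056590 for H1-2, chr6:27146859-27146978 for H2BC12 and chr6:26189113-26189232 for H4C4, all on the minus strand.
H1-2: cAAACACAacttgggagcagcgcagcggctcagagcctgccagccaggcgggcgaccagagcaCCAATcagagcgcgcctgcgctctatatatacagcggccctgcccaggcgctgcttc
H2BC12: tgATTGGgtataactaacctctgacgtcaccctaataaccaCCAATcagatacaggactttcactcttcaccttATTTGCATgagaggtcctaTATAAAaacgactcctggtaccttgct
H4C4: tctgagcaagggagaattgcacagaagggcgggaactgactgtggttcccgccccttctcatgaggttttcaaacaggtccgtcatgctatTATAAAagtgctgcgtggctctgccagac

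Libraries held 9546826 to 15099153 estimated counts, of which the 42 members made up 0.00823% to 0.0393%. All 7 HEK293T markers were above 0 in all 54 libraries (summed level 1168 to 1888 CPM, counts relative to the scaled library size). Most of that sum was VIM (762 to 1390 CPM), and PAX2 had 2.16 to 8.97 CPM. Summed markers of other lineages lay between 14.1 and 23.0 CPM and of neuroblastoma between 2.75 and 8.40 CPM, and HBB and PHOX2A were at 0 in all libraries. Of these lists, MBP (6.81 to 13.3 CPM), COL3A1 (4.33 to 9.78), GFAP (0.156 to 1.73) and HAND2 (2.67 to 8.40) were above 0 in all 54 libraries. Of the 3 other-lineage markers tested, COL3A1 fell in WT_S13 (log2 -0.41). Of the 7 HEK293T markers, 1 rose and 1 fell in WT_S13, 2 fell in N2V7_S13 and 0 were called in N2V8_S13. Replicate 2 of N2V7_S4 stood apart from the other libraries, and counts that changed without it are given both ways. C9orf72 averaged 26.4 CPM in WT_S13, against 29.3 CPM in WT_NTG.

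H2BC12 took 46.8% of the counts of the cluster and H1-2 29.1%. By class, H2B took 57.9% (12 members), H1 30.7% (4), H3 4.39% (7), H4 3.62% (9) and H2A 3.35% (10). These are shares of counts and are not corrected for length. A low-count filter left 24 members for testing (2 H1, 5 H2A, 6 H2B, 5 H3 and 6 H4). The other 18 were H1-3, H1-6, H2AC4, H2AC7, H2AC8, H2AC12, H2AC16, H2BC6, H2BC7, H2BC8, H2BC9, H2BC13, H2BC14, H3C7, H3C12, H4C1, H4C2 and H4C9, with 14 to 168 counts each over all libraries and 1.66% of the counts of the cluster. A member that passed the filter through a group in which it was high had to differ, so counts over the 24 are read beside the share of all genes called. H4C4, H2AC15 and H3C1 reached 10 counts only in libraries of WT_S13, WT_S3 or WT_S4, so their P-values there give no support of their own. The same holds for H3C4 in WT_S13, since it reached 10 counts only in replicates 1 and 2 of that group (14.1 and 16.1).

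Summed over the 42 members, the cluster averaged 197 ± 10.9 CPM in WT_S13, 179 ± 5.25 in WT_S3, 189 ± 4.41 in WT_S4 and 386 ± 15.5 in WT_S7, against 97.5 ± 8.99 in WT_NTG and 92.3 ± 8.82 in UT (SD, n = 3 each). With N2V7 the sums were 122 ± 5.25 CPM for S13, 128 ± 2.91 for S3, 113 ± 9.66 for S4 and 135 ± 3.80 for S7, against 86.9 ± 10.7 for NTG. With N2V8 they were 134 ± 5.01 CPM for S13, 161 ± 11.6 for S3, 114 ± 6.71 for S4 and 130 ± 19.6 for S7, against 99.9 ± 4.92 for NTG. The sum is mostly H2BC12 and H1-2, so the plot of cluster sums also leaves these out. The 28 members with a mean under 10 counts per library summed to 11.6 ± 0.592 CPM in WT_S13, 13.5 ± 1.26 in WT_S3, 12.7 ± 0.885 in WT_S4 and 7.46 ± 1.14 in WT_S7, against 3.58 ± 1.06 in WT_NTG. In WT_S13 libraries 33 to 35 members had at least 1 count, against 21 to 29 in WT_NTG libraries. In bulk RNA, fewer cells of a type and less RNA per cell cannot be told apart.

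**Figure D1:**
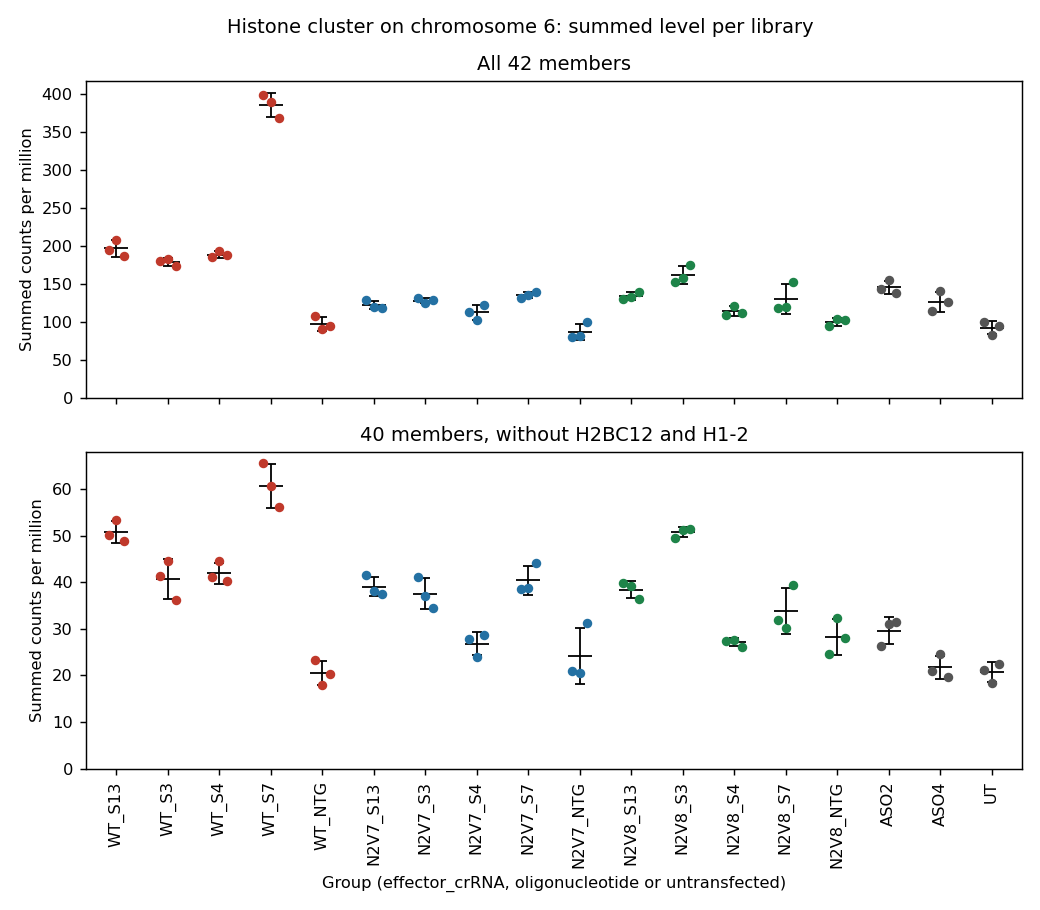
Summed CPM of the 42 members and of the 40 members without H2BC12 and H1-2, by library (points) and group (mean ± SD). WT_S7 averaged 386 CPM and WT_S13 197 CPM over the 42 members, against 97.5 CPM in WT_NTG.

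The first comparison asked what crRNA-13 did with each effector, set against the non-targeting crRNA of the same effector. A gene was called when the higher group exceeded the lower by more than 25% and its adjusted P under 0.05 in edgeR's quasi-likelihood test, with the Benjamini-Hochberg adjustment over all genes. In WT_S13, 14 of the 24 tested members rose and none fell, against 6.53% of all tested genes rising and 4.24% falling. At an unadjusted P under 0.05, 16 members were higher and 0 lower. The median log2 difference of the 24 was 1.34, and 1.05 over the 14 members with a mean of at least 10 counts per library, against 0.00 over all genes. Of those 14 members, 8 rose and 0 fell.

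The linker histone gene H1-2 had 65.5, 72.1 and 58.2 CPM in WT_S13, against 28.6, 23.5 and 28.2 CPM in WT_NTG. The groups did not overlap, and the log2 difference was 1.28 (SE 0.13, adjusted P = 4.85e-09). H2BC12, an H2B gene, had 79.5, 82.9 and 79.7 CPM in WT_S13, against 55.7, 48.7 and 46.2 CPM in WT_NTG, again with no overlap (log2 0.69, SE 0.07, adjusted P = 6.18e-10). Part of the H2BC12 signal is uncertain, since 29.0% of its 31-base windows are unique among histone genes and most of the others are shared with H2BC12L. For H1-2 the share is 99.3%.

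Among the other H2B genes, H2BC5 had 9.10, 9.84 and 8.67 CPM in WT_S13, against 3.63, 3.32 and 3.75 CPM in WT_NTG (log2 1.35, SE 0.18, adjusted P = 8.23e-08). H2BC11 had 3.57, 4.22 and 5.24 CPM in WT_S13, against 1.18, 1.19 and 1.35 CPM in WT_NTG (log2 1.78, SE 0.26, adjusted P = 9.45e-07). In both genes every WT_S13 library lay above every WT_NTG library. H2BC17 rose as well (log2 1.72). H2BC15 did not pass the test, with 3.15, 2.15 and 3.34 CPM in WT_S13, against 4.15, 2.25 and 2.54 CPM in WT_NTG (log2 -0.03, adjusted P = 0.946).

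Of the 5 tested H2A genes, H2AC6, H2AC11, H2AC15 and H2AC17 rose. H2AC6 had 1.94, 2.66 and 1.72 CPM in WT_S13, against 0.302, 0.571 and 0.558 CPM in WT_NTG (log2 2.08, SE 0.39, adjusted P = 5.69e-05). H2AC17 had 2.59, 3.14 and 1.80 CPM in WT_S13, against 1.38, 0.653 and 0.914 CPM in WT_NTG (log2 1.33, SE 0.36, adjusted P = 0.00541). Neither gene overlapped between groups, though H2AC17 shares 316 of its 457 sequence windows with H3C12 in the GENCODE models (30.9% unique). Log2 differences were 2.51 for H2AC15 (adjusted P = 0.00542) and 1.61 for H2AC11 (adjusted P = 0.0124). H2AC11 lost its call without replicate 2 of WT_NTG (adjusted P = 0.0562).

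Among the H3 genes, H3C6 had 11.2, 9.75 and 7.91 CPM in WT_S13, against 2.44, 2.57 and 2.17 CPM in WT_NTG. That is a log2 difference of 2.0 with no overlap (SE 0.22, adjusted P = 6.31e-10). H3C4 held 32.8 counts in the 3 WT_S13 libraries together, against 2.75 in WT_NTG, a ratio of 12.1 (95% exact interval 3.49 to 56.6, which covers counting error only; adjusted P = 0.00321). It reached 10 counts only in WT_S13 libraries, so this ratio is a description. H3C10 had a log2 difference of 2.42 (adjusted P = 0.0209) and lost its call without replicate 2 or 3 of WT_NTG or replicate 2 of WT_S13 (adjusted P up to 0.0765).

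Of the H4 genes, H4C4 had 1.09, 1.30 and 1.38 CPM in WT_S13, against 0, 0 and 0.0717 CPM in WT_NTG. Its counts were 48.3 against 1.01, a ratio of 48.5 (95% exact interval 8.30 to 1955; adjusted P = 2.02e-05). H4C4 passed the low-count filter through groups in which it was high, so this ratio is a description. H4C8 had 1.47, 1.53 and 1.13 CPM in WT_S13, against 0.0771, 0 and 0.556 CPM in WT_NTG (log2 2.56, SE 0.56, adjusted P = 0.000617). Neither overlapped. H4C3 did not pass the test, with 1.34, 2.16 and 1.14 CPM in WT_S13, against 0.867, 1.05 and 0.840 CPM in WT_NTG. H4C11 and H4C12 have identical coding sequences, and no library had counts for both, so their level is given as a sum. It was 1.68 ± 0.246 CPM in WT_S13, against 0.836 ± 0.374 CPM in WT_NTG (SD, n = 3 each). Both still count singly among the 24 tested members, and neither was called in the 12 crRNA comparisons. Their single log2 differences (7.56 and -6.32 in WT_S4) are not read.

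**Figure D2:**
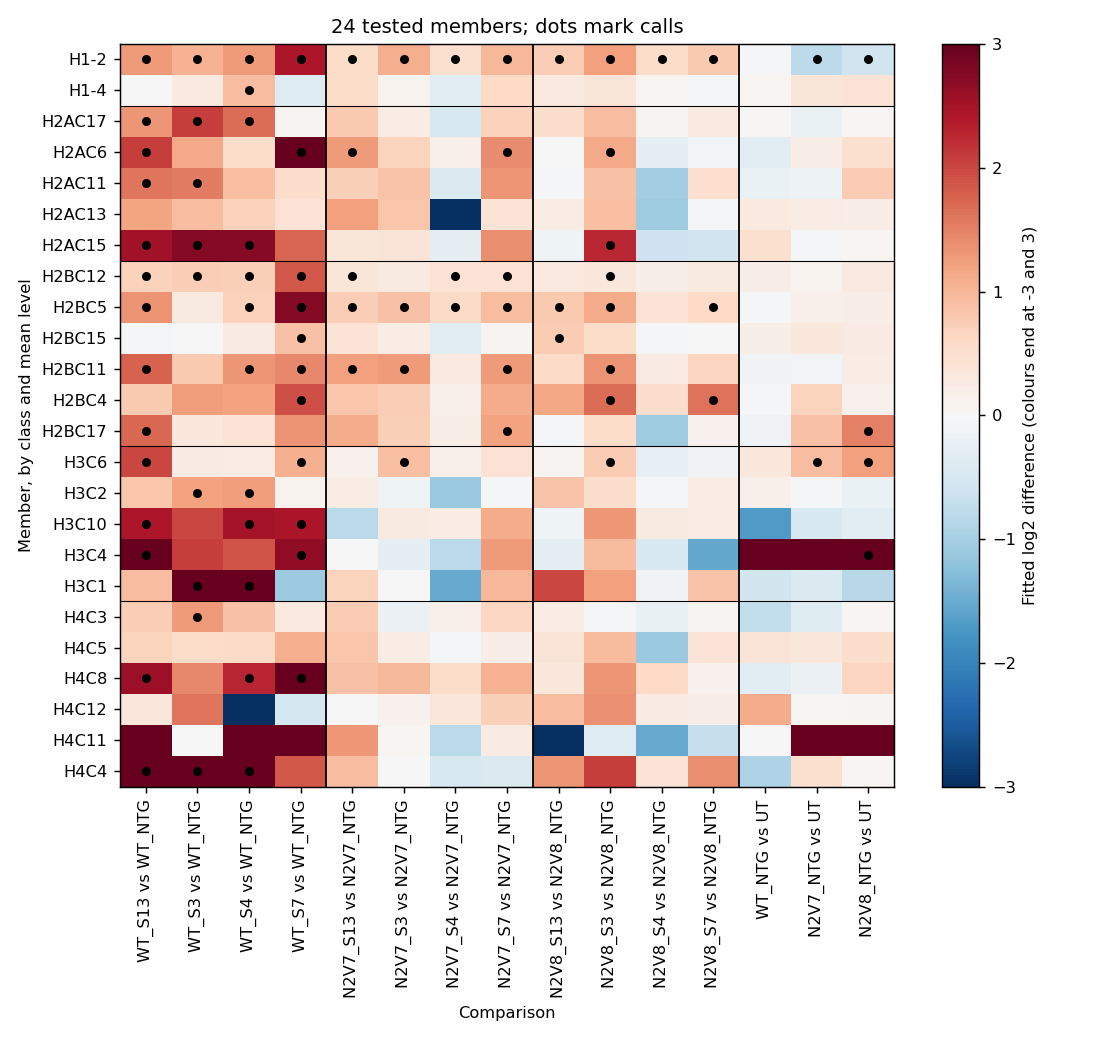
Log2 differences of the 24 tested members (rows) in 15 comparisons (columns), with dots for calls and colours ending at -3 and 3. In WT_S13, 14 members carry a dot, against 5 in N2V7_S13 and 3 in N2V8_S13.

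In N2V7_S13, 5 of 24 members rose and none fell, against 3.66% of all genes rising and 7.78% falling. At an unadjusted P under 0.05, 7 were higher and 0 lower. H1-2 had 23.4, 22.5 and 25.3 CPM in N2V7_S13, against 14.4, 17 and 17.2 CPM in N2V7_NTG (log2 0.55, SE 0.16, adjusted P = 0.0115). H2BC12 had 63.5, 59.0 and 56.0 CPM in N2V7_S13, against 44.3, 44.3 and 50.8 CPM in N2V7_NTG (log2 0.36, SE 0.08, adjusted P = 0.000527). Neither gene overlapped between groups, and the rises of H2AC6 (log2 1.27), H2BC11 (1.24) and H2BC5 (0.74) had no overlap either. H1-2 lost its call without replicate 1 of N2V7_NTG (adjusted P = 0.0676). H2AC6 lost it without replicate 1 or 2 of N2V7_NTG or replicate 3 of N2V7_S13 (adjusted P up to 0.0696), and H2BC12 fell under the fold limit without replicate 1 of N2V7_S13. H3C6 had 3.98, 4.28 and 3.87 CPM in N2V7_S13, against 3.19, 2.89 and 4.84 CPM in N2V7_NTG, and these overlapped.

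In N2V8_S13, 3 of 24 members rose and none fell, against 1.72% of all genes rising and 0.715% falling. At an unadjusted P under 0.05, 6 were higher and 0 lower. H1-2 had 27.4, 28.8 and 35.8 CPM in N2V8_S13, against 19.5, 17.4 and 18.2 CPM in N2V8_NTG (log2 0.73, SE 0.15, adjusted P = 0.000616). H2BC5 had 9.13, 6.78 and 6.36 CPM in N2V8_S13, against 4.24, 4.57 and 4.18 CPM in N2V8_NTG (log2 0.78, SE 0.18, adjusted P = 0.00143). H2BC15, which did not pass in WT_S13, had 4.72, 5.75 and 5.22 CPM in N2V8_S13, against 3.27, 3.10 and 3.03 CPM in N2V8_NTG (log2 0.75, adjusted P = 0.0143). None of the 3 overlapped, and H2BC15 lost its call without replicate 2 of N2V8_S13 (adjusted P = 0.0583). H2BC12 was under the fold limit (log2 0.29, adjusted P = 0.0045).

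Whether the crRNA-13 effect differed between effectors was tested as an interaction. The WT effect was larger than the N2V7 effect in 4 members, against 8.63% of all genes called in that direction: H3C10, H3C6 (log2 difference of effects 1.87, adjusted P = 1.37e-05), H1-2 (0.73, adjusted P = 0.01) and H2BC12 (0.33, adjusted P = 0.0212). It was larger than the N2V8 effect in 8 members, against 9.72% of all genes, but in 4 without the factor of unwanted variation, in 5 with DESeq2, in 7 without replicate 2 of N2V7_S4 and in 3 without replicate 2 of N2V8_NTG. The 8 were H3C6 (1.93, adjusted P = 5.52e-06), H2BC12 (0.40, adjusted P = 0.00488), H2AC6 (2.07, adjusted P = 0.00632), H2BC11, H3C4, H2BC17, H1-2 and H4C8. H3C4 reached 10 counts only in WT_S13 libraries, so its call gives no support of its own. H3C6 and H1-2 against N2V7, and H3C6, H2BC12 and H2AC6 against N2V8, kept the call each time 1 library was left out. The N2V7 and N2V8 effects differed in 0 members by edgeR, against 5.37% of all genes, in 1 member at an unadjusted P under 0.05 and in 0 by DESeq2 or limma-trend.

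In WT_S13 ribosomal RNA took 1.79% to 2.30% of the counts, within the 1.71% to 3.15% of WT_NTG. By edgeR 1 of 11 ribosomal RNA genes rose and 0 fell there (2 higher and 1 lower at an unadjusted P under 0.05). Of 7 other RNAs without poly(A) tails 0 passed the test in either direction (0 at an unadjusted P under 0.05). In N2V7_S13 ribosomal RNA took 4.17% to 4.42%, above the 1.76% to 3.07% of N2V7_NTG, and in N2V8_S13 3.98% to 4.96%, above the 1.81% to 3.52% of N2V8_NTG, and its part in the results of these effectors was not tested. In N2V7_S13 5 of the 11 ribosomal RNA genes and 1 of the 7 other RNAs rose, and in N2V8_S13 1 and 0. The histone genes of the smaller cluster on chromosome 1 summed to 202 CPM in WT_S13, 265 in WT_S3, 192 in WT_S4 and 106 in WT_S7, against 42.9 CPM in WT_NTG, and in WT_S13 3 of its 5 tested genes rose (H4C15, log2 2.42; H2AC18, 2.06; H2BC21, 1.65). Several of those genes have near-identical copies, so their single values are uncertain.

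Genes of the pathway that makes and removes histone mRNA were taken from lists. Their calls in WT_S13 are read beside the 6.53% of all genes that rose and the 4.24% that fell. Of 9 tested genes of histone transcription, 0 rose and 0 fell by edgeR (0 higher and 2 lower at an unadjusted P under 0.05). Of 20 genes of histone 3′ processing, SRRT (log2 0.51) and CSTF3, a cleavage stimulation factor subunit (0.43), rose and CPSF1, a cleavage and polyadenylation factor subunit (-0.33), fell. Of 17 genes of export, translation and decay, the SR proteins SRSF3 (0.51) and SRSF7 (0.48) and LSM1 (0.40) rose, and CTIF (-0.39) fell. Of 13 poly(A) polymerases and exosome genes, EXOSC4 (0.51) rose and ZCCHC8 (-0.38) fell. Of 30 genes of DNA replication and S phase, 0 rose and CHAF1A, a subunit of the histone chaperone CAF-1, fell (-0.33). At an unadjusted P under 0.05, 6 of the 30 were higher and 10 lower.

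The next comparison set the non-targeting crRNA against untransfected cells, which all 3 effectors share. Transfection and the effector with its crRNA cannot be told apart in it. In WT_NTG 0 members rose and 0 fell by edgeR, against 2.71% and 2.38% of all genes, and at an unadjusted P under 0.05 1 was higher and 0 lower, while DESeq2 and limma-trend called 0. In N2V7_NTG 1 rose and 1 fell, against 10.9% and 9.95% of all genes: H3C6 (log2 0.93, adjusted P = 0.00362) and H1-2 (-0.79, adjusted P = 0.000124). In N2V8_NTG 3 rose and 1 fell, against 15.3% and 14.7% of all genes: H3C6 (1.24, adjusted P = 9.14e-05), H2BC17 (1.51, adjusted P = 0.0188), H3C4 and again H1-2 (-0.60, adjusted P = 0.00256). H3C4 was at 0 in the 3 UT libraries, so its level was at least 3.16-fold higher in N2V8_NTG, against a floor of 3 counts over the group. H1-2 had 14.4, 17 and 17.2 CPM in N2V7_NTG and 19.5, 17.4 and 18.2 CPM in N2V8_NTG, against 34.3, 23.3 and 26.6 CPM in UT. H3C6 in N2V7_NTG lost its call without replicate 3 of N2V7_NTG (adjusted P = 0.0734). In N2V8_NTG H1-2 lost it without replicate 1 of UT (0.0524), H2BC17 without replicate 2 of UT or of N2V8_NTG (up to 0.19), and H3C4 without any 1 UT library (up to 0.0674).

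The additional crRNAs were set singly against the same NTG libraries as S13, so these comparisons share their controls. With WT, 9 members rose for S3 (2.09% of all genes), 12 for S4 (2.01%) and 11 for S7 (9.36%). H1-2 had 53.9, 56.7 and 53.9 CPM in WT_S3, 60.5, 66.2 and 67.9 CPM in WT_S4 and 138, 144 and 148 CPM in WT_S7, all above the WT_NTG libraries. H2BC12 had 195, 186 and 165 CPM in WT_S7 (log2 1.86 against WT_NTG, adjusted P = 3.86e-28).

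Member by member, for S3 the largest were H4C4 (ratio 65.5, 95% exact interval 11.5 to 2664) and H3C1 (15.9, 4.99 to 78.6), and for S4 again H4C4 (68.0, 11.8 to 2733) and H3C1 (11.2, 3.35 to 55.4). H4C4 had 1.83, 2.07 and 1.27 CPM in WT_S3 and 1.39, 1.88 and 1.98 CPM in WT_S4, and in WT_S7 0, 0.190 and 0.171 CPM. For S7 the largest were H2AC6 (log2 3.37, adjusted P = 1.46e-10), H4C8 (2.98) and H2BC5 (2.76, adjusted P = 1.69e-19). H2AC15 rose for S3 (2.75) and S4 (2.73), as did H2AC17 (2.07 and 1.68) and H3C2 (1.22 and 1.3). H2BC4 (1.94) and H2BC15 (0.87) rose for S7. Calls lost with 1 library left out were H3C2, H4C3 and H2AC11 for S3 (adjusted P up to 0.107), H1-4, H2BC5, H3C10 and H3C2 for S4 (up to 0.145), and H3C4 and H3C10 for S7 (up to 0.153).

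**Figure D3:**
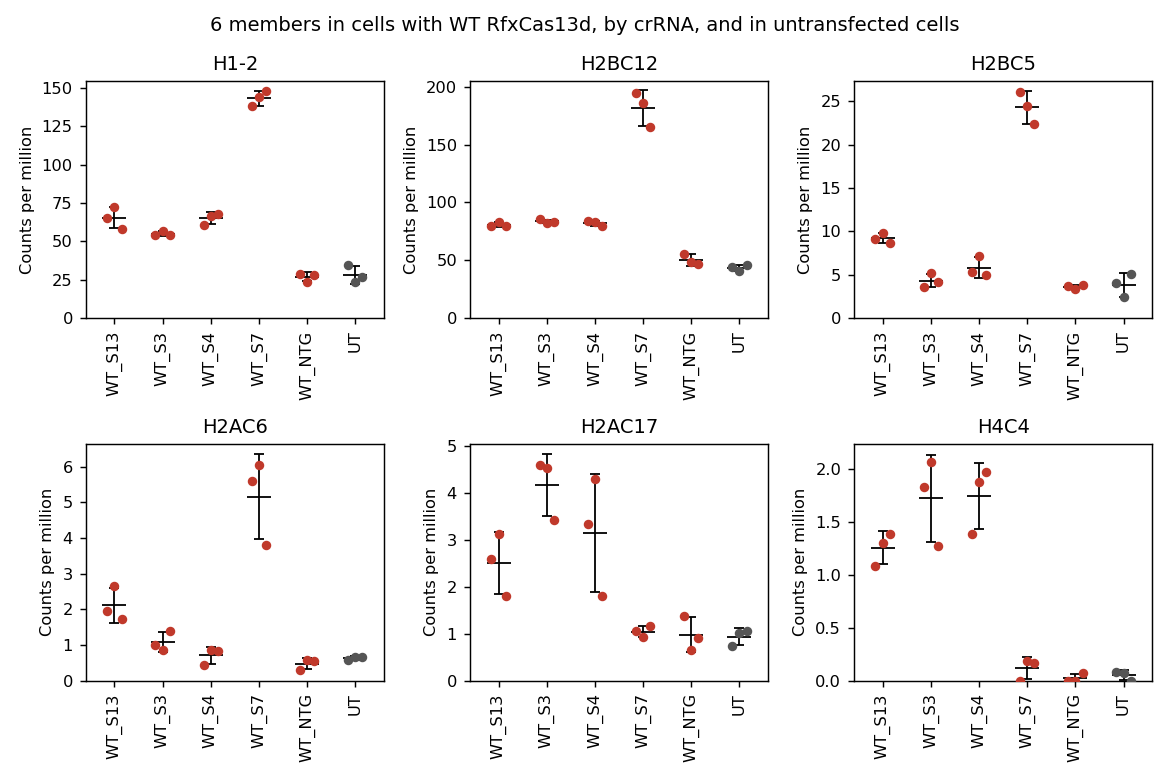
CPM of H1-2, H2BC12, H2BC5, H2AC6, H2AC17 and H4C4 in each library of WT_S13, WT_S3, WT_S4, WT_S7, WT_NTG and UT. WT_S7 holds the highest H1-2 values (138 to 148 CPM), and its H4C4 values are 0, 0.190 and 0.171 CPM.

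The same crRNAs were tested with the high-fidelity effectors, and the counts were not tested against those of WT. With N2V7, 4 rose for S3 (3.13% of all genes), 3 for S4 (9.66%) and 6 for S7 (5.38%). The factor of unwanted variation had 95.6% of its weight on the N2V7_S4 libraries. Leaving it out kept 3 members rising for S4, with 1518 of all genes rising and 1451 falling (main fit 1485 and 2230). When N2V7_S4 and N2V7_NTG were fitted by themselves, also without it, 1 member rose, and 129 of all genes rose and 237 fell. The count and share for S4 thus depend on which libraries were fitted. Without replicate 2 of N2V7_S4, the library that stood apart, 2 rose and 1 fell for S4. With N2V8, 8 rose for S3 (2.15%), 1 for S4 (2.95%) and 3 for S7 (3.86%). Without replicate 1 of N2V8_NTG 4 rose for S3 and 1 for S7, and without its replicate 3 again 1 for S7. With 1 library left out, H2AC15, H2AC6, H2BC4, H3C6 and H2BC12 lost the call in N2V8_S3, H2BC5 and H2BC4 in N2V8_S7, and H2BC17 in N2V7_S7 (adjusted P up to 0.204 in N2V8_S3, 0.108 in N2V8_S7 and 0.127 in N2V7_S7). H1-2 rose in all 6 of these and in all 12 crRNA comparisons, though with overlap between N2V7_S4 and N2V7_NTG, where leaving out any 1 of 5 libraries ended the call (adjusted P up to 0.335). H2BC5 rose in 10 of the 12, of which the call in N2V7_S4 was lost without its replicate 2 (adjusted P = 0.247), H2BC12 in 8, H2BC11 in 7 and H2AC6 in 5.

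H1-2 had 33.5, 36.4 and 32.9 CPM in N2V7_S3 and 27.5, 35.2 and 34.1 CPM in N2V7_S7, all above the 14.4, 17 and 17.2 CPM of N2V7_NTG. It had 36.9, 43.5 and 49.5 CPM in N2V8_S3 and 23.1, 29.2 and 28.8 CPM in N2V8_S4, above the 19.5, 17.4 and 18.2 CPM of N2V8_NTG. H2BC5 had 7.49, 10.6 and 9.71 CPM in N2V8_S3, again above all 3 N2V8_NTG libraries.

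Both oligonucleotides were set against the same UT libraries. No group was given a control oligonucleotide, so the oligonucleotide and its delivery cannot be told apart. In ASO2 4 members rose (7.07% of all genes): H2BC4 (log2 1.41), H1-2 (1.06), H2BC5 (0.87) and H2BC12 (0.42). In ASO4 2 rose (0.917%): H1-2 (0.64) and H2BC12 (0.50). H1-2 had 58.7, 64.4 and 51.6 CPM in ASO2 and 39.6, 52.4 and 38.8 CPM in ASO4, against 34.3, 23.3 and 26.6 CPM in UT. None of these overlapped UT. H2BC4 lost its call in ASO2 without replicate 1 or 2 of UT or replicate 2 or 3 of ASO2 (adjusted P up to 0.157).

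WT_S7 and WT_S13 were compared directly after their values had been seen. In WT_S7 6 members were higher and 3 lower than in WT_S13, against 7.31% and 9.86% of all genes. Higher were H2BC5 (log2 1.40, adjusted P = 4.4e-11), H2AC6 (1.29), H2BC12 (1.17, adjusted P = 1.81e-20), H2BC4 (1.15), H1-2 (1.14, adjusted P = 1.29e-09) and H2BC15 (0.90). Lower were H4C4 (-3.26, adjusted P = 0.00036), H2AC17 (-1.25, adjusted P = 0.00651) and H3C6 (-0.94, adjusted P = 0.000206). H2AC17 had 1.05, 0.924 and 1.17 CPM in WT_S7, against 2.59, 3.14 and 1.80 CPM in WT_S13. H2BC4 lost its call without any 1 WT_S7 library or replicate 1 of WT_S13 (adjusted P up to 0.153).

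Members were then split by their annotated 3′ extent, also after their values had been seen, so the split is a description with no test. In 10 members (H2AC6, H2BC4, H2BC5, H2BC6, H2BC11, H2BC12, H2BC15, H3C6, H3C10 and H4C8) a GENCODE or RefSeq model runs more than 100 bases past the stem-loop, and 9 of these were tested. In RefSeq only H2BC4, H2BC5, H2BC12 and H3C6 do so, and the rest end 5 or 6 bases past it. The counts were made on the NCBI annotation, so the longer 3′ ends of the rest may not have been counted. In WT_S7, 9 of 9 rose, with a median log2 of 1.94, against 2 of 15 of the other tested members (0.54). In WT_S3 1 of 9 rose (0.78), against 8 of 15 (1.28). In WT_S13 the counts were 7 of 9 (1.78), against 7 of 15 (1.28), and in WT_S4 5 of 9 (0.71), against 7 of 15 (1.3). Among the others, H4C4 and H2AC15 rose in WT_S13, WT_S3 and WT_S4, H3C1 in WT_S3 and WT_S4, and H3C4 in WT_S13. These genes reached 10 counts only in libraries of such groups, so the counts of the others there are partly set by the low-count filter. H1-2 and H3C4, whose models end near the stem-loop, were the 2 others that rose in WT_S7. AATAAA, the usual polyadenylation signal, stood 12 bases past the stem-loop of H1-2, and none was found in the stretch searched past that of H3C4. It also stood 102 bases past that of H2AC17 and 160 past that of H4C3, and neither gene rose in WT_S7. The part of this signal was not tested.

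**Figure D4:**
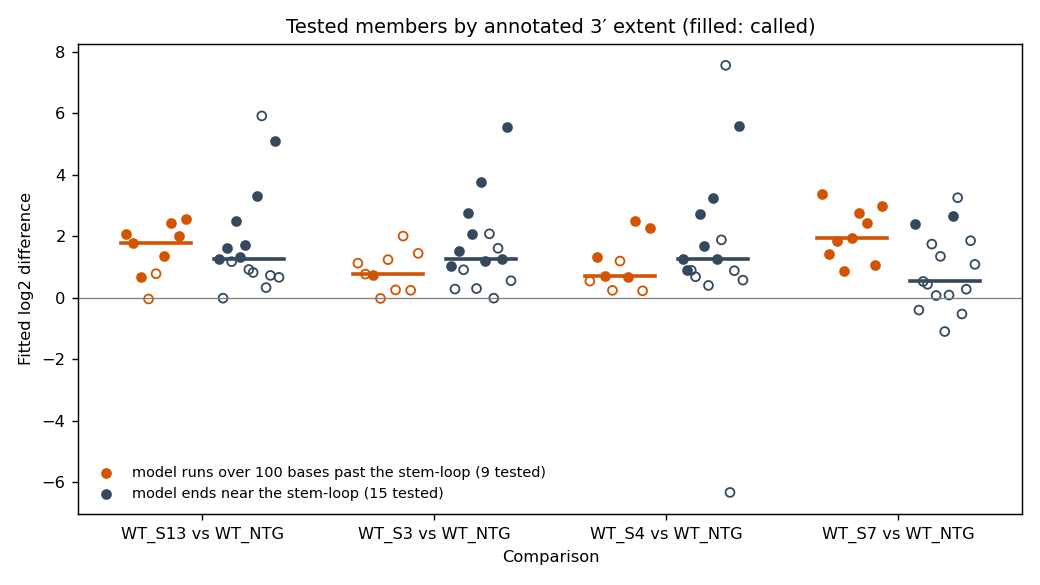
Log2 differences of tested members in WT_S13, WT_S3, WT_S4 and WT_S7 against WT_NTG, split by whether an annotated model runs more than 100 bases past the stem-loop (filled points are calls, lines are medians). In WT_S7, 9 of 9 members of the extended kind are filled, against 2 of 15 others. For H2AC6, H2BC11, H2BC15, H3C10 and H4C8 only a GENCODE model is extended.

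Head-to-head neighbours were set side by side. There were 9 neighbour pairs with starts under 1000 bases apart on opposite strands. In the pair of H3C4 and H2BC7, the annotated start of H3C4 is also that of H2AC7. H2AC15 and H2BC15 start 194 bases apart, and in WT_S13 H2AC15 rose (log2 2.51) while H2BC15 did not pass (-0.03). H2BC4 and H2AC6 start 246 bases apart, and in WT_S13 H2AC6 rose (2.08) while H2BC4 did not pass (0.79). H2BC11 and H2AC11 (248 bases) both rose in WT_S13 (1.78 and 1.61), as did H2AC17 and H2BC17 (240 bases; 1.33 and 1.72). The difference between the 2 genes of a pair was not tested.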

How the data were processed

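RNA was measured in 54 libraries, 18 groups of 3 independent biological replicates. The deposited values are estimated counts for each gene. The authors obtained them with Salmon (version 1.5.2) on spliced transcripts of the NCBI annotation with a GRCh38 decoy, summed per gene by tximport with the lengthScaledTPM option. Reads that map to several transcripts are shared out, so near-identical histone genes can split or exchange counts. The deposited table also has a column of another kind (unit: other), a TRUE or FALSE mark of genes the authors kept, whose rule is not stated. It was not used in the tests.

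Counts were rounded and analysed in R (version 4.3.3) with edgeR (version 4.0.16): filterByExpr left 15378 genes, scaling was by TMM, and all 54 libraries were fitted with the robust quasi-likelihood F test, a term for each group and 1 RUVr factor of unwanted variation. P-values were adjusted by Benjamini-Hochberg across every gene and comparison in a family. CPM values use the TMM-scaled library sizes. The members, lists, named genes and tests were chosen with earlier results of these data known, and the gene lists were written here. A list of histone variants that are not tied to replication is not reported here. Named genes were the 6 largest called members of each crRNA-13 comparison and the member with the most counts in each class, and other called members are given as well. Alternatives were DESeq2 (version 1.42.0), limma-trend (version 3.58.1), DESeq2 size factors, no low-count filter, no factor, a replicate term, only the compared libraries, an adjusted p under 0.01, and each library left out, which kept the genes and dispersion trend of the full fit. The fit without replicate 2 of N2V7_S4, the comparison of WT_S7 with WT_S13 and the split by 3′ extent were added after the data were seen. Stem-loops and uniqueness come from GRCh38 and GENCODE v44, which may differ from the authors' annotation release. The smallest library held 9546826 counts, which limits the precision of low members. Intervals cover counting error only.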

Additional observations from a re-analysis of the deposited data

Results flagged for a closer look

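The crRNA-13 effect, as S13 against NTG, was larger with WT RfxCas13d than with N2V7 in 4 members by the interaction test, with log2 differences of effects of 3.23 for H3C10, 1.87 for H3C6, 0.73 for H1-2 and 0.33 for H2BC12. Against N2V8 it was larger in 8 members, but in 4 without the factor of unwanted variation, 5 with DESeq2, and 7 with a replicate block, with DESeq2 size factors or without replicate 2 of N2V7_S4: 3.59 for H3C4, 2.24 for H4C8, 2.07 for H2AC6, 1.93 for H3C6, 1.76 for H2BC17, 1.20 for H2BC11, 0.55 for H1-2 and 0.40 for H2BC12.

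Several of these rest on single libraries. Against N2V7, H3C10 kept its call in 3 of 12 fits with 1 library left out (adjusted P up to 0.176) and H2BC12 in 7 of 12 (up to 0.1). Against N2V8, H1-2, H2BC17 and H4C8 kept it in 3 of 12 each (up to 0.124, 0.161 and 0.153), H3C4 in 4 of 12 (up to 0.0971) and H2BC11 in 9 of 12 (up to 0.0636). H3C4 also reached 10 counts only in WT_S13 libraries, so its call gives no support of its own. H3C6 was the member with the same call against both effectors in all 12 fits of each.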

How the results depend on the processing

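Counts of called members (edgeR's quasi-likelihood test) depended on the processing as follows. With an adjusted p under 0.01 they were 3 for N2V7_S13, 2 for WT minus N2V7, 3 for WT minus N2V8 and 2 for N2V8_NTG against UT. Without the low-count filter they were 5 for N2V8_S13 (4 rose and 1 fell), 5 for WT minus N2V8 and 2 for N2V7 minus N2V8. WT minus N2V8 gave 4 without the factor of unwanted variation and 5 with DESeq2, and N2V8_NTG against UT gave 2 with only the compared libraries. Replicate numbers did not pair the libraries: residuals of libraries with the same number had a mean correlation of 0.00112, and with a replicate block the counts were 14 for WT_S13, 5 for N2V7_S13, 3 for N2V8_S13, 4 for WT minus N2V7 and 7 for WT minus N2V8. With each library left out, the counts were 12 to 14 for WT_S13, 3 to 6 for N2V7_S13, 2 to 5 for N2V8_S13, 2 to 4 for WT minus N2V7, 3 to 7 for WT minus N2V8, 0 to 1 for N2V7 minus N2V8, 0 for WT_NTG, 1 to 2 for N2V7_NTG, 2 to 5 for N2V8_NTG, 26 to 34 for the additional crRNAs with WT, 11 to 14 with N2V7, 6 to 13 with N2V8, 3 to 5 for ASO2, 2 to 3 for ASO4 and 8 to 9 for WT_S7 against WT_S13. The log2 difference of H4C3 in N2V8_S13 turned to -0.075 by limma-trend. With each library left out it ran between -0.14 (without replicate 1 of N2V8_S13) and 0.63, that of H3C6 in N2V7_S13 between -0.0020 (without replicate 2 of N2V7_NTG) and 0.40, and that of H3C6 in N2V8_S13 between -0.071 (without replicate 2 of N2V8_S13) and 0.24. Medians over the tested members turned with only the compared libraries for N2V8_S4 (0.090). With each library left out they ran between -0.068 and 0.19 for N2V7_NTG against UT, -0.39 and 0.33 for N2V7_S4, -0.17 and 0.056 for N2V8_S4, and -0.011 and 0.32 for ASO4. The causes were not tested. Members with few counts limit precision. Apart from the fits with 1 library left out, the median log2 difference of all genes lay at most 0.0201 from 0 in every fit and comparison.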
